A study of Mus musculus with 24 samples.

Results

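Hypoxia and glycolysis genes are the enzymes that break glucose down to lactate, together with genes that cells are known to switch on when oxygen is scarce. A list of 34 mouse genes was fixed by symbol, and the gene's brightest singly named probe set was followed on 24 arrays of sorted colon fibroblasts. Measured members came to 32 of the 34, out of 30145 named genes in the series. The remaining members, Gpi1 and Eno1, had no probe set with a single name and were not analysed here, and Ero1l was followed under its current symbol, Ero1a.

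The cells were colon fibroblasts sorted in the gate Epcam-CD45-CD31-gp38+ (gp38 is podoplanin), and each of the 24 samples was hybridised to 1 Affymetrix Mouse Transcriptome Array after amplification of 2 ng of RNA. All mice carried Villincre-ERT2, an inducible Cre recombinase driven by the Villin promoter of the intestinal epithelium, together with the ZsGreen allele. WT had the genotype Villincre-ERT2-ZsGreen-IhhWT-ApcWT (7 arrays), ApcKO had Villincre-ERT2-ZsGreen-IhhWT-ApcKO (8 arrays), and IhhKO_ApcKO had Villincre-ERT2-ZsGreen-IhhKO-ApcKO (9 arrays). Because Villin drives Cre in epithelium, the deletions were directed at cells outside the sorted gate, and the fibroblasts' own Ihh and Apc levels do not check the labels. Apc is the brake on Wnt signalling that is lost in most colonic adenomas, and Ihh, Indian hedgehog, is the Hedgehog ligand that the epithelium sends to the fibroblasts. The labels name no inducing agent, time since induction or age, and do not say whether arrays stand for different mice, so p-values measure only the spread between these samples, which may be technical.

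Cells answer low oxygen through hypoxia-inducible factors, HIF, whose alpha subunits are marked for destruction by prolyl hydroxylases as long as oxygen is present. When oxygen runs short the alpha subunit persists, pairs with Arnt and binds the letters ACGTG or GCGTG beside its target genes, among them glucose transporters, glycolytic enzymes, vascular signals and the hydroxylases themselves. The colon mucosa is known for a steep oxygen gradient between its vessels and the lumen, and its fibroblasts lie along that gradient.

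The sequence just upstream of these genes was read to see how many hold the letters that HIF binds. RefSeq start sites on GRCm38.p6 gave the 250 bases before the start for 30 of the 32 measured members, in 43 windows, and Bnip3l and Ndrg1 had no entry. ACGTG was searched on both strands, which reads CACGT on the reverse. GCGTG was searched likewise and reads CACGC on the reverse. Overlapping matches counted separately, so the letters CACGTG count on both strands. ACGTG occurred upstream of 20 of the 30 members (66.7%), against 18.5% of 27025 genes with a window and 20.0% of 17491 protein-coding genes. Counted by window, the shares were 53.5% of 43 and 16.6% of 32851. GCGTG also occurred upstream of 20 members (66.7%), against 30.9% of all genes and 36.7% of protein-coding genes. Either motif stood before 28 of 30 members (93.3%), against 41.5% of all and 47.1% of protein-coding genes, and only Eno2 and Tpi1 had neither. A match is a run of letters and not a measured binding site. The list was chosen for genes known to respond to low oxygen, so these shares do not test a link to HIF. Background genes were not matched for base composition or for windows per gene. The windows below are a selection from the members, all holding matches, which are in capitals. Eno2, which had neither motif, is not shown, although its values are described below. Ankrd37, Bnip3, P4ha2 and Slc2a1 are not shown either. Ldha is shown for 1 of its 2 windows, which held 5 ACGTG matches, and its other window, with no ACGTG and 1 GCGTG match, is not shown. The Pfkfb3 windows lie at chr2:11553930-11554179 and chr2:11502091-11502340, both on the minus strand. Egln3 is at chr12:54203875-54204124 on the minus strand, and Adm at chr7:110627407-110627656 on the plus strand. Pgk1 is at chrX:106186850-106187099, Ldha at chr7:46845554-46845803 and Car9 at chr4:43506776-43507025, all on the plus strand.
Pfkfb3, window 1: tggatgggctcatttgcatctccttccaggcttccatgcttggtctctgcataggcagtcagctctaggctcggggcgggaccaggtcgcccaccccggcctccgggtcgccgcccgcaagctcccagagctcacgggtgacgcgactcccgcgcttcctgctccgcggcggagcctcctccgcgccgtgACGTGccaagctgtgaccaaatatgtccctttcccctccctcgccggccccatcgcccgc
Pfkfb3, window 2: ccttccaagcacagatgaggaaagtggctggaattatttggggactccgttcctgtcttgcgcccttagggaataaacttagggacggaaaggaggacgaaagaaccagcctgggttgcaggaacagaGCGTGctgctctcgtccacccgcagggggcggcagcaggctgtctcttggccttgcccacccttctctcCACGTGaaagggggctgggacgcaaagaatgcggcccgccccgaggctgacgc
Egln3: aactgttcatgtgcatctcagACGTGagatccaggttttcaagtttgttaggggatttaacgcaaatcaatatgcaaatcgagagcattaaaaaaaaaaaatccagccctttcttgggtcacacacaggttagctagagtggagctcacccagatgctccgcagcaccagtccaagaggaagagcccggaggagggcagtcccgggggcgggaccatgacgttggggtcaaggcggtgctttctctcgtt
Adm: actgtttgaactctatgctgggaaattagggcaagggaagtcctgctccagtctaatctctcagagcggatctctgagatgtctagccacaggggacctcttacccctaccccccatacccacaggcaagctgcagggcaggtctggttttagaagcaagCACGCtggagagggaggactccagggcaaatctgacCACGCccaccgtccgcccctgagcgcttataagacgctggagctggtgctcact
Pgk1: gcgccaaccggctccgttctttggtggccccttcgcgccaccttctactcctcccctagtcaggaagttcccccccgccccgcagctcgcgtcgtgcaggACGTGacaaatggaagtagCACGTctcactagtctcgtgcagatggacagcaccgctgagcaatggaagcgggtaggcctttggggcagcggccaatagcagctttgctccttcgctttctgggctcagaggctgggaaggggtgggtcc
Ldha: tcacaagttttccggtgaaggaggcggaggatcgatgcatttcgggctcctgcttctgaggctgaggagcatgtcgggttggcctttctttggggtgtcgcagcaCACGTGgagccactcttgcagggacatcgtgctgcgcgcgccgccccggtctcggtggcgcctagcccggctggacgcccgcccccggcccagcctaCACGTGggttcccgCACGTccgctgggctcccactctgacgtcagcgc
Car9: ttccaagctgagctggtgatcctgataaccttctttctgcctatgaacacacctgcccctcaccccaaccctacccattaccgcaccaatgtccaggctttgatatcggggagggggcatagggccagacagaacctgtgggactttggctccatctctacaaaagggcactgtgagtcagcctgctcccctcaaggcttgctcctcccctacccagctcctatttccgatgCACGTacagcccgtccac
Adm differs from the others printed in having GCGTG matches alone, on the reverse strand.

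Values are log2 units after RMA, which corrects background, equalises the distribution of values across arrays and summarises each probe set. Array medians lay between 4.96 and 5.14, and the number of arrays limits the precision. Every measured member averaged above 4.60, the median of the 5222 negative control probe sets, but only 10 of 32 averaged above 8.09, their 95th percentile, and 29 averaged above the median gene at 5.61. The array means of 9 fibroblast markers lay at 10.2 to 10.8 on a scale where antigenomic background probe sets lay at 2.68 to 3.15. Ptprc, which encodes CD45, lay at 2.82 to 3.21 and Pecam1, which encodes CD31, at 4.99 to 6.51. The array means of 11 leukocyte markers ran from 5.14 to 5.60, with Cd68 the brightest at group means of 9.07 to 9.15 and Tyrobp and Lyz2 reaching 6.65 and 6.82, and those of 8 endothelial markers ran from 5.38 to 6.30. The array means of 16 epithelial markers ran from 5.67 to 8.47, although the gate removes Epcam-positive cells, and Epcam itself from 4.73 to 8.11. Xist, an RNA of female cells, was low on some arrays and high on others in every group, from 4.36 to 11.4. Its medians were 7.15 in WT, 4.57 in ApcKO and 10.9 in IhhKO_ApcKO, so the mix of sexes may differ between groups. The array labelled IhhKO_ApcKO B9 had Gli1, a Hedgehog target that falls when the ligand is lost, at 7.99, against 7.98 to 8.47 in WT and ApcKO and a median of 6.79 in its own group. Values without B9 are given for Pfkfb3, Egln3, Eno2 and Bnip3, for which B9 was the highest or the lowest array of its group. B9 was also the lowest array of its group for Slc16a3 and Pgam1, for which no value without B9 is given.

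No hypoxia or glycolysis gene passed the test between any 2 genotypes. The members' average level was 7.55 ± 0.05 in the 7 WT arrays, 7.49 ± 0.03 in the 8 ApcKO arrays and 7.53 ± 0.07 in the 9 IhhKO_ApcKO arrays (mean ± SD). On single arrays it ran from 7.40 on IhhKO_ApcKO C9 to 7.63 on WT A1, and all 3 groups overlapped. The member with the most evidence of a difference was Pfkfb3, an activator of glycolysis, whose mean in IhhKO_ApcKO was 0.708 times that in WT without passing. Pfkfb3 passed there only when B9 was left out (limma, adjusted p = 0.041), as 1 of 66 genes then called. A missing call does not show that levels were equal. The 95% intervals of single members reached from 0.592 to 1.44 times in the comparison of IhhKO_ApcKO with WT.

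Loss of epithelial Apc asks whether fibroblasts beside Apc-deficient epithelium change these genes. ApcKO minus WT called 0 of 32 members, higher or lower, and 0% of all 30145 genes in either direction (limma, Benjamini-Hochberg adjusted p under 0.05). At an unadjusted p under 0.05 there were 4 members and 1333 genes (4.42%), and no member had groups that did not overlap, which 2 genes had (0.00663%). The mean was lower in ApcKO for 21 members and higher for 11, while 39.6% of all genes were higher, with a median difference of -0.034 over members and -0.020 over all genes. All 16 epithelial markers had a higher mean in ApcKO, by 0.55 on average, and 0 of them passed. With the epithelial or the leukocyte mean added to the model, the members' mean difference was -0.046 or -0.059, against -0.062 without, and 0 members passed. The part of the other cell types in the fibroblast values was not tested. In bulk samples fewer cells of a type cannot be told apart from less RNA per cell.

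Loss of epithelial Ihh on top of Apc asks what the missing Hedgehog signal does. IhhKO_ApcKO minus ApcKO called 0 of 32 members, against 15 of 30145 genes (0.0498%), of which 1 was higher (0.00332%) and 14 lower (0.0464%). An unadjusted p under 0.05 was seen for 2 members and 1508 genes (5%), and 0 members and 7 genes (0.0232%) had groups that did not overlap. The direction of the means was opposite to that of the first comparison, with 22 members higher and 10 lower, where 56.6% of all genes were higher, and a median of 0.029, against 0.011 over all genes. Both comparisons use the same ApcKO arrays, so a chance low value in ApcKO lowers the one and raises the other. All 8 smooth muscle and pericyte markers had a lower mean in IhhKO_ApcKO than in ApcKO, by 0.28 on average. Epithelial markers were lower for 14 of 16 (mean difference -0.30), fibroblast markers for 8 of 9 (-0.075), and leukocyte markers higher for 9 of 11 (0.079), and 0 markers of these lists passed. With the epithelial or the leukocyte mean added to the model, the members' mean difference was 0.034 or 0.054, against 0.042 without, and 0 members passed. The part of the other cell types in the members' values was not tested.

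The double knockout against WT gave the widest member differences. IhhKO_ApcKO minus WT called 0 of 32 members, against 25 of 30145 genes (0.0829%), 3 higher (0.00995%) and 22 lower (0.073%). The unadjusted p was under 0.05 for 6 members and 2304 genes (7.64%), and 0 members but 22 genes (0.073%) had groups that did not overlap. The mean was higher for 14 members and lower for 18, where 45.1% of all genes were higher, with a median of -0.015, close to the -0.010 of all genes. Single differences ran from -0.50 for Pfkfb3 to 0.27 for Slc2a1. Smooth muscle and pericyte markers were lower for 8 of 8 (mean difference -0.20) and fibroblast markers for 8 of 9 (-0.12), while leukocyte markers were higher for 10 of 11 (0.097) and epithelial markers for 13 of 16 (0.25). None of these markers passed. With the epithelial or the leukocyte mean added to the model, the members' mean difference was -0.012 or -0.0052, against -0.019 without, and 0 members passed. The part of the other cell types in the members' values was not tested.

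**Figure D1:**
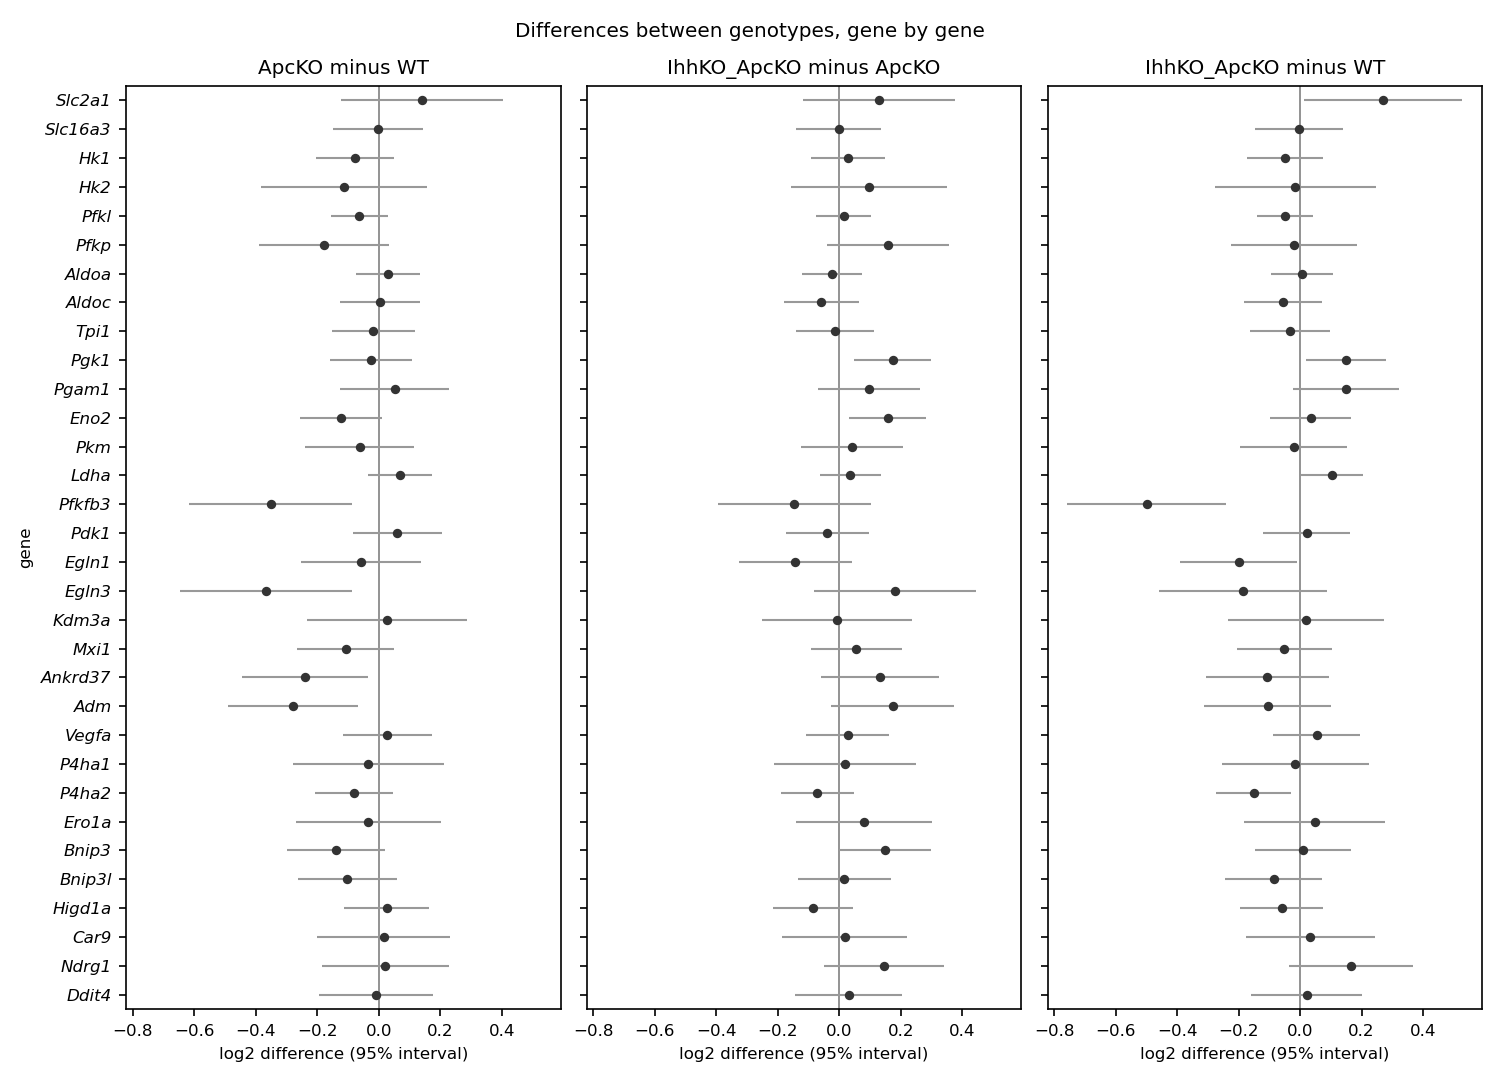
Log2 difference (x axis) with its 95% interval for each of the 32 measured genes (y axis, in order of role) in the 3 comparisons, from the model over 24 arrays. Most intervals cover 0, and Pfkfb3 in IhhKO_ApcKO minus WT, at -0.50, lies farthest from it.

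Transport of sugar in and lactate out falls to Slc2a1, the glucose transporter GLUT1, and Slc16a3, the lactate exporter MCT4. Slc2a1 lay at 8.43 to 9.03 in WT (median 8.85), 8.63 to 9.38 in ApcKO (median 8.89) and 8.74 to 9.77 in IhhKO_ApcKO (median 8.99). The group ranges overlapped widely, and the top value belonged to C3, which stood clear of the next array at 9.22. Its difference was 0.14 (SE 0.13) for ApcKO minus WT, 0.13 (SE 0.12) for IhhKO_ApcKO minus ApcKO and 0.27 (SE 0.12, adjusted p = 0.63) for IhhKO_ApcKO minus WT, where 8 of 9 arrays lay above the WT mean. Without C3 the double knockout differed by 0.041 (SE 0.10) from ApcKO and by 0.18 (SE 0.10, adjusted p = 0.77) from WT. Slc16a3 averaged between 6.25 and 6.26 in all 3 groups, with SDs of 0.17, 0.14 and 0.10.

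Among the glycolytic enzymes, 4 of 12 had a higher mean in ApcKO than in WT, against 39.6% of all genes, and 9 of 12 a higher mean in IhhKO_ApcKO than in ApcKO, against 56.6% of all genes. Pgk1, phosphoglycerate kinase, makes ATP in the lower part of the pathway. It lay at 7.94 to 8.32 in WT (median 8.08), 7.98 to 8.22 in ApcKO (median 8.08) and 8.14 to 8.58 in IhhKO_ApcKO (median 8.24). All 9 double knockout arrays were above the means of both other groups, although the ranges overlapped and C7 supplied the highest value. The difference was 0.17 from ApcKO (SE 0.061, adjusted p = 0.65) and 0.15 from WT (SE 0.063, adjusted p = 0.57).

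The probe set used for Pgk1 carries an identifier that names chromosome 12, while RefSeq places the gene on X. The gene's other probe set, whose identifier names X, averaged 7.09 ± 0.15 (SD, n = 7), 7.13 ± 0.11 (SD, n = 8) and 7.31 ± 0.17 (SD, n = 9) in WT, ApcKO and IhhKO_ApcKO. With it the double knockout was 0.18 above ApcKO and 0.22 above WT, and ApcKO minus WT was 0.042 in place of -0.025. Whether the brighter one reports a copy of the gene was not tested. Pgam1 is also known to have processed copies in the genome, and whether its probe set reports them was not tested.

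Eno2, the neuronal type of enolase, lay at 6.50 to 6.93 in WT (median 6.78), 6.51 to 6.81 in ApcKO (median 6.61) and 6.60 to 6.92 in IhhKO_ApcKO (median 6.79). ApcKO sat lowest of the 3 medians, within overlapping ranges. The difference of IhhKO_ApcKO from ApcKO was 0.16 (SE 0.061, adjusted p = 0.81), with 8 of 9 arrays above the ApcKO mean and 0.18 (SE 0.061, adjusted p = 0.49) without B9, and that of ApcKO from WT was -0.12 (SE 0.065).

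Ldha, which turns pyruvate into lactate, varied little, at 8.88 ± 0.07 (SD, n = 7), 8.95 ± 0.06 (SD, n = 8) and 8.98 ± 0.11 (SD, n = 9) in WT, ApcKO and IhhKO_ApcKO. The double knockout minus WT came to 0.10 (SE 0.049, adjusted p = 0.64), with 7 of 9 arrays above the WT mean. Pgam1, phosphoglycerate mutase, differed by 0.15 in the same comparison (SE 0.084, adjusted p = 0.72). Pfkp, the platelet type of phosphofructokinase, averaged 7.73 ± 0.21 (SD, n = 7), 7.55 ± 0.26 (SD, n = 8) and 7.71 ± 0.15 (SD, n = 9) in the same order of groups. Its lowest array was A9 at 7.07, far under the ApcKO median of 7.56.

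The other enzymes differed by at most 0.11 log2 units between any groups. Hk2, the inducible hexokinase, averaged 8.11, 7.99 and 8.09 in WT, ApcKO and IhhKO_ApcKO with SDs of 0.29, 0.21 and 0.30, and Hk1, the constitutive one, 6.29, 6.21 and 6.24. The liver type of phosphofructokinase, Pfkl, was the steadiest member of all, with a residual SD of 0.073 and means of 6.70, 6.63 and 6.65. The aldolases that split fructose bisphosphate stood at 7.52, 7.55 and 7.52 for Aldoa and 5.34, 5.35 and 5.29 for Aldoc. Tpi1, triose phosphate isomerase, stayed at 9.50, 9.48 and 9.46, and Pkm, pyruvate kinase, at 8.07, 8.01 and 8.05.

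Regulators of carbon flow decide how fast glucose is used and whether pyruvate enters mitochondria. Pfkfb3 makes fructose 2,6-bisphosphate, a potent activator of phosphofructokinase. It lay at 7.22 to 8.07 in WT (median 7.79), 7.08 to 7.60 in ApcKO (median 7.33) and 6.80 to 7.69 in IhhKO_ApcKO (median 7.22). WT itself was split, with A4 and A5 among the values of the knockouts, A3 at 7.55 under A9 and B9, and A8 highest, so that the ranges overlapped. The double knockout was -0.50 from WT (SE 0.13, adjusted p = 0.16), with 8 of 9 arrays under the WT mean. Without B9, its highest array, the difference was -0.56 (SE 0.12) and passed, at an adjusted p of 0.041, as 1 of 66 genes called in that setting. ApcKO minus WT was -0.35 (SE 0.13, adjusted p = 0.97, 8 of 8 arrays under the WT mean), and IhhKO_ApcKO minus ApcKO was -0.15 (SE 0.12). Pdk1, the kinase that shuts pyruvate out of mitochondria, averaged 4.90 ± 0.14 (SD, n = 7), 4.96 ± 0.11 (SD, n = 8) and 4.92 ± 0.15 (SD, n = 9).

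**Figure D2:**
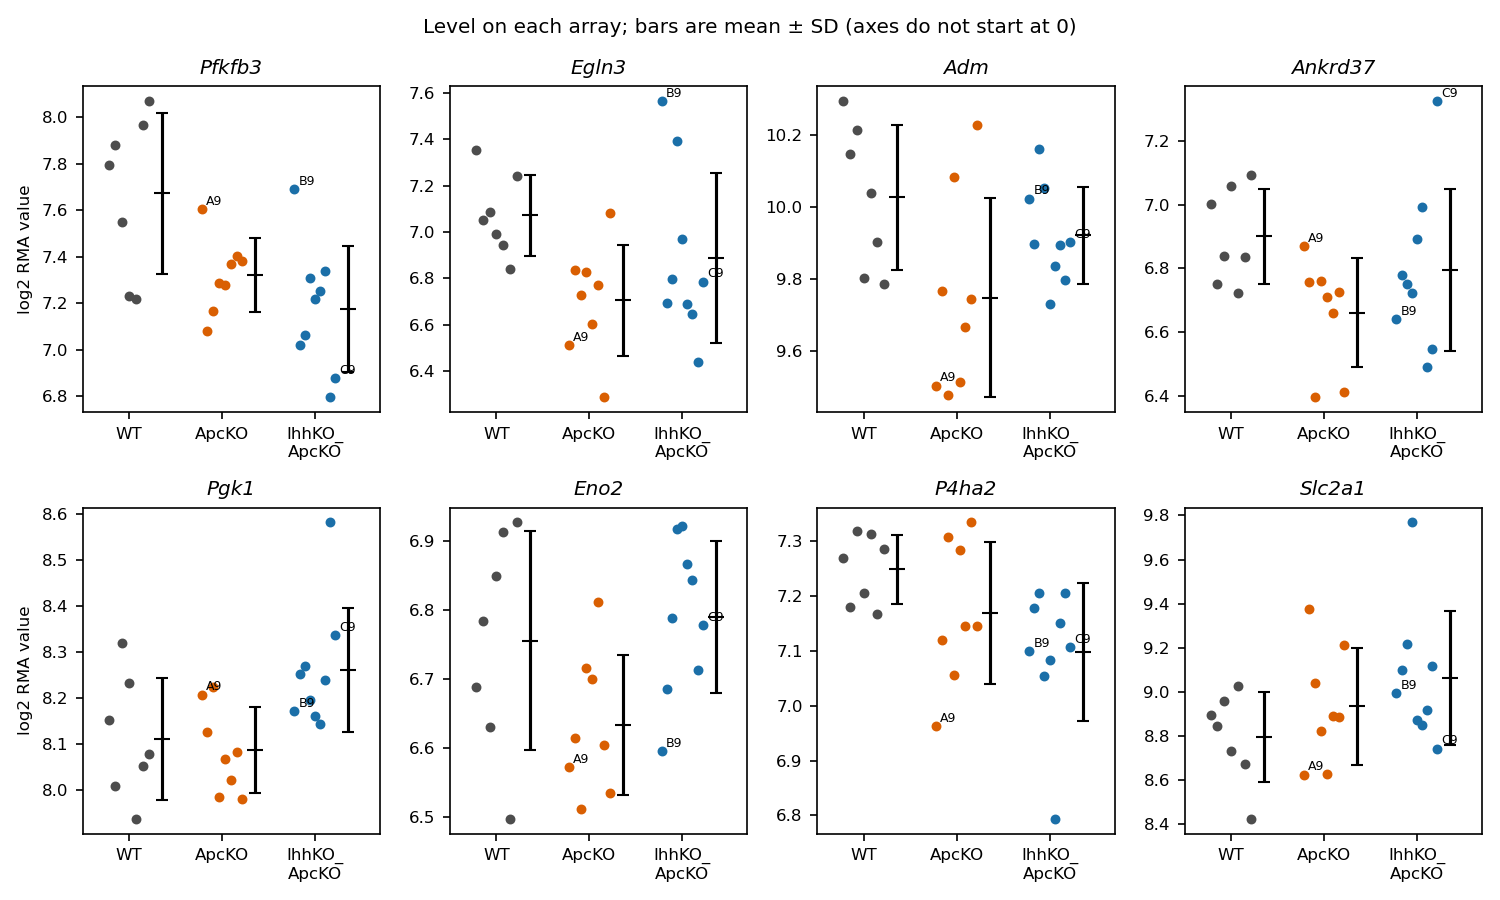
RMA log2 value (y axis, not starting at 0) of 8 named genes on each array of WT, ApcKO and IhhKO_ApcKO, with the mean ± SD as a bar beside the points and arrays A9, B9 and C9 marked. Groups overlap in every panel, and in the panel of Pfkfb3 the highest IhhKO_ApcKO point is B9 at 7.69.

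Oxygen sensors and nuclear regulators had the largest negative difference of ApcKO from WT. Egln3, a prolyl hydroxylase that marks HIF alpha subunits, lay at 6.84 to 7.35 in WT (median 7.05), 6.29 to 7.08 in ApcKO (median 6.75) and 6.44 to 7.57 in IhhKO_ApcKO (median 6.79). ApcKO was mostly low, while B9 and C3 gave the double knockout the widest range. The difference was -0.37 for ApcKO minus WT (SE 0.14, adjusted p = 0.97, 7 of 8 arrays under the WT mean) and 0.18 for IhhKO_ApcKO minus ApcKO (SE 0.13), or 0.096 without B9. IhhKO_ApcKO minus WT was -0.19 (SE 0.13), or -0.27 without B9.

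Ankrd37, a small ankyrin-repeat protein known as a HIF target, lay at 6.72 to 7.09 in WT (median 6.84), 6.39 to 6.87 in ApcKO (median 6.72) and 6.49 to 7.33 in IhhKO_ApcKO (median 6.75). The highest value was that of C9, the array with the most epithelial signal. Within genotypes, the slope of Ankrd37 on the epithelial marker mean was 0.017 (SE 0.053). Without C9, IhhKO_ApcKO minus WT was -0.17 in place of -0.11, and IhhKO_ApcKO minus ApcKO 0.066 in place of 0.13. ApcKO minus WT was -0.24 (SE 0.10, adjusted p = 0.97), with 8 of 8 arrays under the WT mean. Egln1, the main prolyl hydroxylase, averaged 7.44 ± 0.13 (SD, n = 7), 7.38 ± 0.16 (SD, n = 8) and 7.24 ± 0.25 (SD, n = 9), and the double knockout was -0.20 from WT (SE 0.093, adjusted p = 0.63). Kdm3a, a histone demethylase, differed by at most 0.027 between groups and Mxi1, an antagonist of Myc, by at most 0.11 in size.

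The secreted vascular factors were Adm and Vegfa. Adm, adrenomedullin, a peptide that widens vessels, lay at 9.79 to 10.29 in WT (median 10.04), 9.48 to 10.23 in ApcKO (median 9.71) and 9.73 to 10.16 in IhhKO_ApcKO (median 9.90). ApcKO was the low group, although B3 and B8 reached WT levels. The difference was -0.28 for ApcKO minus WT (SE 0.10, adjusted p = 0.97, 6 of 8 arrays under the WT mean), 0.17 for IhhKO_ApcKO minus ApcKO (SE 0.097, adjusted p = 1.00) and -0.10 for IhhKO_ApcKO minus WT (SE 0.10). Vegfa, the main growth factor of blood vessels, stayed at 8.65 ± 0.13 (SD, n = 7), 8.68 ± 0.10 (SD, n = 8) and 8.71 ± 0.17 (SD, n = 9).

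Collagen folding is served by the prolyl 4-hydroxylase subunits P4ha1 and P4ha2 and by the endoplasmic reticulum oxidase Ero1a. P4ha2 lay at 7.17 to 7.32 in WT (median 7.27), 6.96 to 7.33 in ApcKO (median 7.15) and 6.79 to 7.21 in IhhKO_ApcKO (median 7.11). All 9 double knockout arrays were under the WT mean, with C5 far below the rest. IhhKO_ApcKO minus WT was -0.15 (SE 0.060, adjusted p = 0.51), ApcKO minus WT -0.079 (SE 0.061) and IhhKO_ApcKO minus ApcKO -0.072 (SE 0.057). Without C5 the last became -0.034 and that of IhhKO_ApcKO minus WT -0.11. P4ha1 averaged 8.37, 8.34 and 8.36, and Ero1a 7.38, 7.34 and 7.42, in WT, ApcKO and IhhKO_ApcKO.

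Mitochondrial members were the mitophagy receptors Bnip3 and Bnip3l and the respiratory chain protein Higd1a. Bnip3 lay at 6.78 to 7.08 in WT (median 6.85), 6.50 to 7.12 in ApcKO (median 6.67) and 6.77 to 7.11 in IhhKO_ApcKO (median 6.87). ApcKO held both the lowest and the highest arrays. The difference of IhhKO_ApcKO from ApcKO was 0.15 (SE 0.073, adjusted p = 0.99), or 0.16 without B9, with 9 of 9 arrays above the ApcKO mean, and of IhhKO_ApcKO from WT 0.0094 (SE 0.075). Bnip3l averaged 7.97, 7.86 and 7.88 and Higd1a 8.36, 8.38 and 8.30 in the 3 groups.

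The last group has roles in acid balance, stress and growth restraint. Ndrg1, a growth-restraining protein, averaged 9.19 ± 0.23 (SD, n = 7), 9.21 ± 0.14 (SD, n = 8) and 9.36 ± 0.23 (SD, n = 9), and IhhKO_ApcKO minus WT was 0.17 (SE 0.098, adjusted p = 0.74). Ddit4, an inhibitor of mTOR signalling, stood at 6.38, 6.37 and 6.40. Car9, the carbonic anhydrase on the cell surface, had means of 5.29 ± 0.09 (SD, n = 7), 5.31 ± 0.25 (SD, n = 8) and 5.33 ± 0.25 (SD, n = 9). Its SD was larger in both knockout groups than in WT at almost equal means, a difference in spread that was not tested.

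The letter of the sample code, whose meaning the labels do not give, nearly coincided with genotype. WT arrays were all coded A, IhhKO_ApcKO arrays C apart from B9, and ApcKO arrays B apart from A9. Genotypes can therefore be compared within a letter only through A9 and B9. For Pfkfb3, A9 was -0.068 from the mean of the 7 WT arrays, and B9 was 0.41 above the mean of the 7 ApcKO arrays coded B. With the letter as a block, IhhKO_ApcKO minus ApcKO rests on B9 alone against the ApcKO arrays coded B. IhhKO_ApcKO minus WT adds to that the difference of A9 from WT, so it rests on B9 and A9. B9 is the array whose Gli1 level was that of the groups with intact Ihh. Blocked values of IhhKO_ApcKO therefore depend on 1 array of doubtful label, cannot be had without it, and say little on direction. On that footing Pfkfb3 was 0.34 (SE 0.34, adjusted p = 0.76) in IhhKO_ApcKO minus WT, against -0.56 without the block and without B9. Slc2a1 was at -0.15 (SE 0.38), P4ha2 at -0.38 (SE 0.17) and Pgk1 at 0.20 (SE 0.19). In the same order of genes, A9 was -0.17, -0.29 and 0.096 from the WT mean. B9 was 0.014, -0.099 and 0.10 from the mean of the ApcKO arrays coded B. For ApcKO minus WT the blocked values rest on A9 alone and were -0.56 for Egln3 (SE 0.24), -0.52 for Adm (SE 0.21) and -0.030 for Ankrd37 (SE 0.20). IhhKO_ApcKO minus ApcKO became -0.046 for Eno2 (SE 0.13), 0.021 for Bnip3 (SE 0.16), 0.24 for Adm (SE 0.21) and 0.10 for Pgk1 (SE 0.13). The same blocked comparison gave 0.83 for Egln3 (SE 0.24, adjusted p = 0.21), against 0.18 without the block and 0.096 without the block and without B9. No member passed in the blocked fit.

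Some arrays were extreme for many members. Among IhhKO_ApcKO arrays, C9 was the lowest for 9 of 32 members, among them Egln1, Kdm3a, P4ha1, Ero1a, Pkm and Ndrg1, and C2 was the highest for 10. C9 also had the highest epithelial mean of all arrays, 8.47, and the lowest weight when limma estimated array quality, 0.26, where 1 is an average array. In WT, A1 was the highest array for 8 members and A6 the lowest for 8. The members' residual SD, the spread within genotype, had a median of 0.16, near the 0.15 of all genes, and ran up to 0.28 for Egln3.

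**Figure D3:**
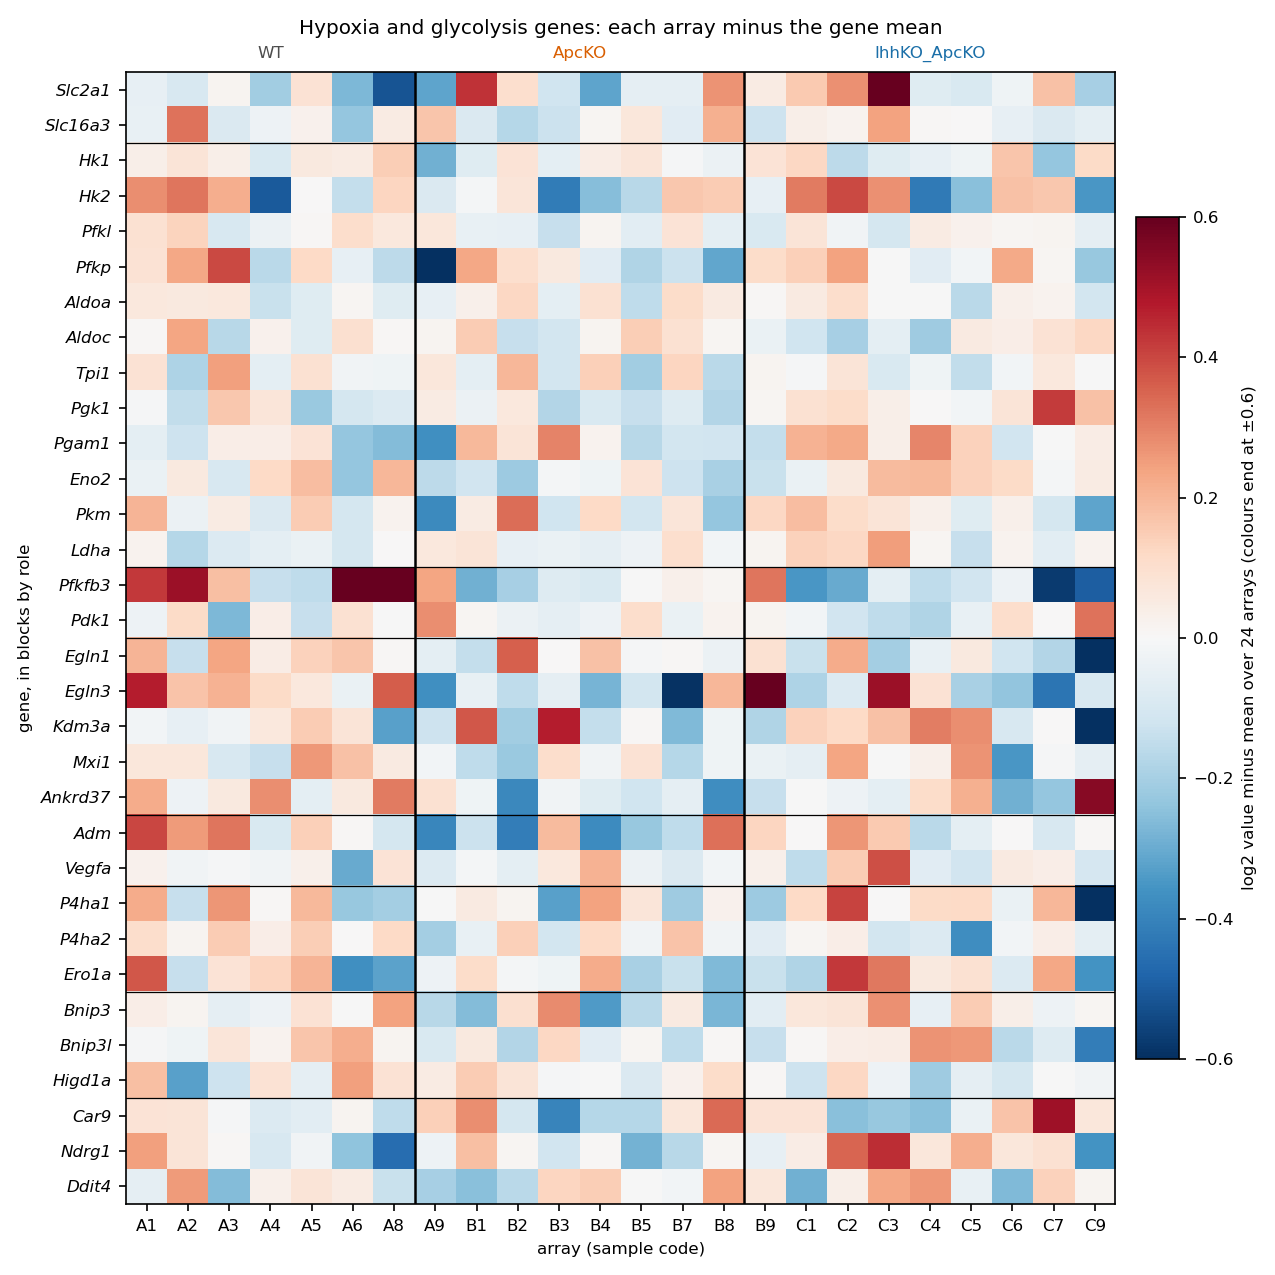
Each cell is the RMA log2 value of a gene (y axis, in blocks by role) on an array (x axis) minus that gene's mean over 24 arrays, in red where higher and blue where lower. Columns are grouped by genotype. Pfkfb3 is red on several WT arrays, and C9 shows blue cells for Egln1, Kdm3a and P4ha1.

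The members' tendency to vary together was described by correlations within genotypes. After the group means were taken out, the mean Pearson r over the 496 member pairs was 0.033, against 0.029 over all gene pairs, and 274 pairs were positive. Pairs with r above 0.5 numbered 25 (5.04%), against 5.22% of all gene pairs, and pairs below -0.5 numbered 17 (3.43%), against 2.94%. Within a genotype it was 0.055 in WT, -0.0075 in ApcKO and 0.064 in IhhKO_ApcKO. Without C9 it was 0.022, against 0.024 over all gene pairs. As a description, with pairs picked after their values were seen and all sharing the same 24 arrays, Kdm3a and Bnip3l were closest, with r = 0.87 and rho = 0.83, and r = 0.80 without the 2 farthest arrays. Ero1a and Ndrg1 followed with r = 0.80, then P4ha1 and Ero1a with r = 0.73. The lowest pairs were Pgam1 with Pfkfb3 and Pkm with Pdk1, both at -0.62. By its mean r with all other members, Ndrg1 was highest at 0.18 and Pdk1 lowest at -0.20.

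Members of the same enzyme step or family were also compared as pairs. Of 7 such pairs fixed by name, 6 were measured, and 0 passed a two-sided permutation test with 100000 resamples within genotype (adjusted over the 6 measured pairs). P4ha1 and P4ha2 had the highest value, with r = 0.19 (permutation p = 0.38, adjusted 0.75) and rho = 0.40 (permutation p = 0.054, adjusted 0.32), and r = 0.19 without the 2 farthest arrays. Aldoa and Aldoc had the lowest, with r = -0.28 (permutation p = 0.20, adjusted 0.75) and rho = -0.30 (permutation p = 0.16, adjusted 0.48), and r = -0.14 without the 2 farthest arrays. Hk1 with Hk2, Pfkl with Pfkp, Egln1 with Egln3 and Bnip3 with Bnip3l lay between, from -0.25 to 0.097.

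**Figure D4:**
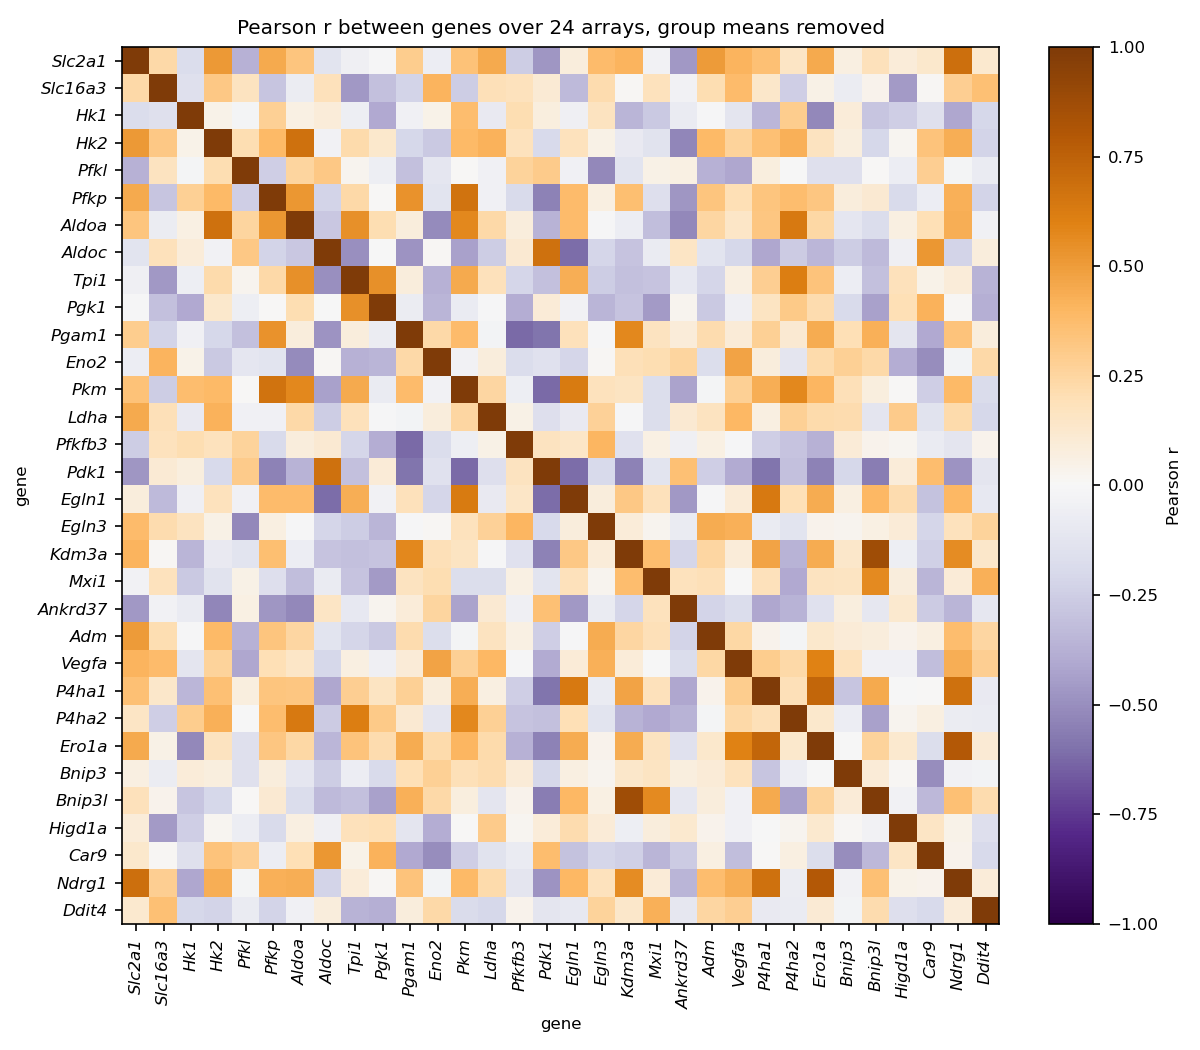
Pearson r between each pair of the 32 genes (both axes, in order of role) over 24 arrays after the mean of each genotype was taken out, orange for positive and purple for negative values. Strong cells are scattered, such as Kdm3a with Bnip3l at 0.87, and the mean over all pairs is 0.033.

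Car9 was the 1 member whose slope on the epithelial signal passed the test. Its slope within genotypes was 0.20 log2 units per log2 unit of the epithelial marker mean (SE 0.039, adjusted p = 0.0035). At a mean of 5.31, Car9 was dimmer than the median gene, at 5.61. Over 30129 genes outside the marker list, 655 passed with a positive slope (2.17%) and 183 with a negative slope (0.607%). The members gave 1 and 0 of 32, near those shares. Car9 was lowest at 4.92 on ApcKO B3, whose epithelial mean of 6.35 was the lowest of its group, and highest at 5.82 on IhhKO_ApcKO C7, with an epithelial mean of 8.04. C9, with the highest epithelial mean of all arrays at 8.47, had Car9 at 5.38, within the range of WT. On WT arrays, Car9 kept between 5.16 and 5.39 over epithelial means of up to 8.03. A difference in slope between genotypes was not tested.

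A positive slope was found for 10 of 32 members, with a median of -0.032, against 54.7% positive and a median of 0.0064 over all genes. The next smallest p-values belonged to Pdk1, with a slope of 0.10 (SE 0.031, adjusted p = 0.087), and Vegfa, with -0.096 (SE 0.032, adjusted p = 0.12). Pdk1 passed without WT A2 (adjusted p = 0.037) or WT A5 (adjusted p = 0.046). Pfkfb3 had a slope of 0.0077 (SE 0.068), and its difference of IhhKO_ApcKO from WT was as large, -0.50, with the epithelial mean in the model.

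**Figure D5:**
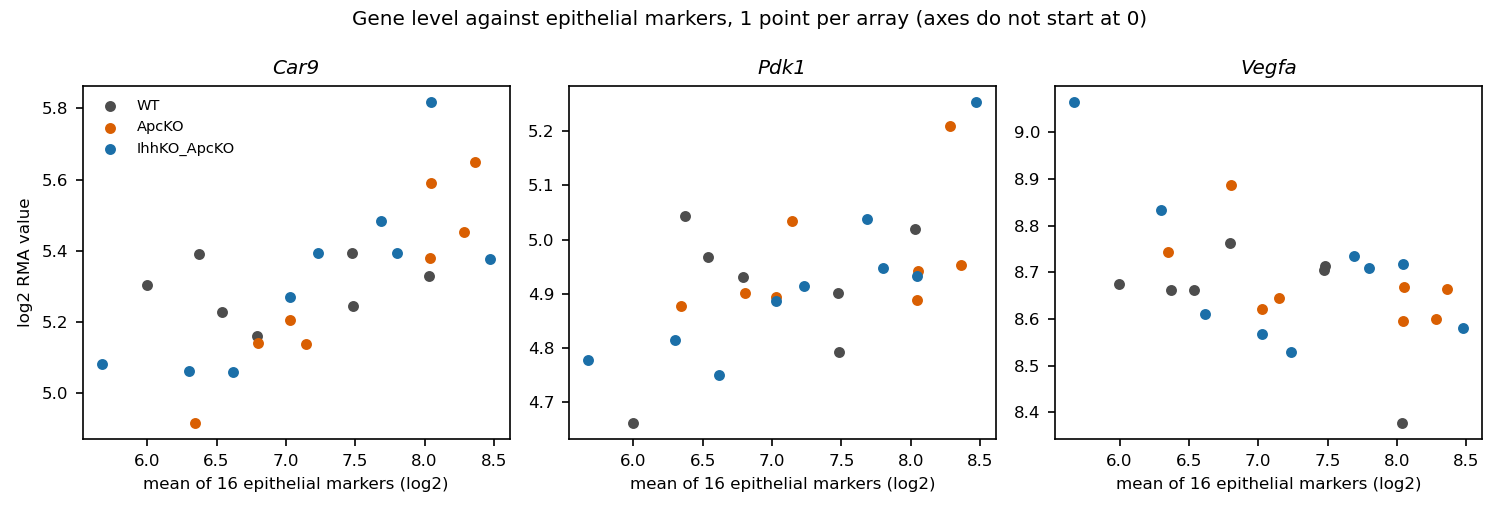
RMA log2 value of Car9, Pdk1 and Vegfa (y axes, not starting at 0) against the mean of 16 epithelial markers (x axis, log2) with 1 point per array, coloured by genotype. Car9 lies between 4.92 (ApcKO B3) and 5.82 (IhhKO_ApcKO C7) in the knockout groups and between 5.16 and 5.39 in WT. C9, with the highest epithelial mean, has Car9 at 5.38, and a difference in slope between genotypes was not tested.

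Genes of the surrounding pathways, from lists outside the 34, did not pass between genotypes either. Among 13 HIF subunits and regulators, 8 had a higher mean in ApcKO than in WT, 6 in IhhKO_ApcKO than in ApcKO and 6 in IhhKO_ApcKO than in WT. Over all genes, 39.6%, 56.6% and 45.1% were higher in that order, which also serves as the background for the lists below. Hif1a, the alpha subunit itself, lay above the ApcKO mean in 9 of 9 double knockout arrays, with a difference of 0.16 (SE 0.075, adjusted p = 0.97), and 0.16 from WT (SE 0.078, adjusted p = 0.64). Siah2, a ubiquitin ligase acting on the prolyl hydroxylases, differed by 0.19 and 0.20 in the same comparisons. For ApcKO minus WT the smallest p-values were those of Cited2, an inhibitor of HIF, at -0.17 (SE 0.15) and Arnt at 0.043 (SE 0.059).

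Among 22 other glycolysis genes, 10, 10 and 8 had a higher mean in the same order of comparisons. Pgm2, a phosphoglucomutase, came nearest to passing, with 0.28 for IhhKO_ApcKO minus WT (SE 0.067, adjusted p = 0.13, 9 of 9 arrays above the WT mean). Slc16a1, the lactate transporter MCT1, had 0.28 there (SE 0.092, adjusted p = 0.35). Gapdh was 0.11 higher in ApcKO than in WT (SE 0.041, adjusted p = 0.97), and Pdk2 was -0.16 from ApcKO in the double knockout (SE 0.092).

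Among 27 other genes known as hypoxia-induced, 11, 18 and 11 had a higher mean in the same order. Angptl4, an inhibitor of lipoprotein lipase, and Nampt, an enzyme of NAD synthesis, were each at -0.28 in ApcKO minus WT (SE 0.099 and 0.14). The cytokine Mif was 0.17 higher (SE 0.070) and Nampt 0.28 higher (SE 0.13) in IhhKO_ApcKO than in ApcKO, and Mif and the histone demethylase Kdm4c were 0.12 and 0.11 above WT.

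Citric acid cycle and pyruvate dehydrogenase genes, 19 in all, had 14, 8 and 12 higher means in the same order (73.7%, 42.1% and 63.2%). The shares over all genes were 39.6%, 56.6% and 45.1%. Citrate synthase, Cs, was 0.18 higher in ApcKO than in WT (SE 0.070) and -0.14 from ApcKO in the double knockout (SE 0.065), where Sdhd was also at -0.14 (SE 0.060). Mdh2, malate dehydrogenase, had 0.11 for ApcKO minus WT (SE 0.061) and 0.21 for IhhKO_ApcKO minus WT (SE 0.060, adjusted p = 0.24), and Dlat -0.10 (SE 0.052). In the slope on epithelial markers, Fbp2 (0.65, SE 0.064, adjusted p = 1.2e-07) and Pklr (0.17, SE 0.031, adjusted p = 0.0012) passed upward and Ppp1r3c (-0.28, SE 0.071, adjusted p = 0.030) downward.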

How the data were processed

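RNA from 24 samples of sorted colon fibroblasts was measured on 24 arrays. Values are log2 values that the authors deposited after RMA, per the submitters' processing notes. No version or genome build for that step is given in the sources used here. Samples were grouped by the genotype in their titles. Of 72688 probe sets, 6732 controls were left out. Of the 65956 others, 30607 had 1 gene symbol, 2143 had several and 33206 had none, and 820 symbols were updated through RefSeq. The brightest probe set stood for each of 355 genes with more than 1, which gave 30145 genes with no filter on dim ones. Arrays were not normalised again.

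Group differences came from lmFit and eBayes of limma 3.58.1 (R 4.3.3) with 3 group means and all 24 arrays in the model, with Benjamini-Hochberg adjustment over all genes of a comparison. The epithelial slope used the same model with the mean of 16 epithelial markers added, over the 30129 genes outside that list. Tables and correlations were made with Python 3.11.15, pandas 2.3.3, numpy 2.4.6 and scipy 1.17.1. The limma script was tested on simulated data. The members and all gene lists were chosen with earlier results of these data known. Every measured member was named, with full values for the 4 members of smallest p in each comparison when none passed, for members with a passing slope, and for the 2 genes of smallest p from each other pathway list. Alternatives were trend and robust fitting, array weights, centring on the array median, the brighter genes alone, the mean of all probe sets, covariates (epithelial, leukocyte and immediate early means, Xist), the code letter as a block, the compared groups alone and each array left out. Using the chromosome X probe set of Pgk1 was chosen after seeing the data. The members were averaged also by their median. Replicates of different groups share no code, so nothing was paired.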

Additional observations from a re-analysis of the deposited data

Results flagged for a closer look

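Of 99 groups of member values looked at, 10 had 1 array far from the others by Dixon's test, which chance gives in about 5% of groups. IhhKO_ApcKO C3 was highest for Slc2a1, at 9.77 with the next array at 9.22, and for Slc16a3, at 6.49 with the next at 6.29. C9 was lowest in the same group for Egln1 (6.69, next 7.14) and Kdm3a (7.33, next 7.86). C7 was highest for Pgk1 (8.58, next 8.34), and C5 lowest for P4ha2 (6.79, next 7.05). Among ApcKO arrays, A9 was lowest for Hk1 (5.95, next 6.17) and highest for Pdk1 (5.21, next 5.03). In WT, A8 was lowest for Kdm3a (7.72, next 7.99), and A6 was lowest for Vegfa (8.38, next 8.66). C3 had the lowest epithelial marker mean of all arrays, 5.67, C9 the highest, 8.47, and A9 the second highest of ApcKO, 8.28, and the part of that signal in these values was not tested.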

How the results depend on the processing

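Members called in the 3 genotype comparisons stayed at 0 under all alternatives except 1. Leaving out 1 array gave 0 to 1 in IhhKO_ApcKO minus WT, the 1 being Pfkfb3 without B9. With Xist as a covariate, the lowest limma adjusted p in IhhKO_ApcKO minus ApcKO was 0.82 for Pgk1, against 0.65 without it. In IhhKO_ApcKO minus WT it was 0.22 for Pfkfb3, against 0.16. The slope on epithelial markers called 1 to 2 members when 1 array was left out, the second being Pdk1 without A2 or A5. Car9 passed in every setting, with slopes of 0.17 to 0.22 and a limma adjusted p of 0.0016 to 0.045. The highest adjusted p, just under the threshold, came with the leukocyte mean added. Blocking on the code letter, the members' mean difference was -0.12 in ApcKO minus WT, resting on A9, and -0.081 in IhhKO_ApcKO minus WT, resting on A9 and B9. Without the block, averaging the members by their median gave -0.073 in IhhKO_ApcKO minus WT. Centring on array medians turned the sign of the members' mean difference in IhhKO_ApcKO minus WT, from -0.019 to 0.0083. No replicate block was possible in these data, and no paired analysis was possible because the groups share no replicate codes.

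Counts over all genes moved more than those of the members. The letter block called 119 genes in ApcKO minus WT, 51 in IhhKO_ApcKO minus ApcKO and 82 in IhhKO_ApcKO minus WT. Array weights called 67 and 46 in the last comparisons, median centring 8 and 14, and the compared groups alone 14 and 8. The brighter genes alone gave 23 and 37, and the immediate early mean or Xist as a covariate gave 10 each in IhhKO_ApcKO minus ApcKO. Without B9 the counts were 51 and 66. IhhKO_ApcKO minus ApcKO otherwise ran from 8 to 25, with 25 without A9 and 8 or 9 without B4, B5, C1 or C6. IhhKO_ApcKO minus WT otherwise ran from 12 to 28, with 28 under trend and robust fitting and 12 to 16 without A1, A4, A5, A6, A8, C4, C6 or C7. The slope called 838 genes, 343 with the leukocyte mean added, 519 without C9 and 1135 without WT A5. The number of arrays and the overlap with control probe sets limit what dim members such as Pdk1, Car9 and Aldoc can show.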
